A study of Homo sapiens with 12 samples.

Results

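The genes described here are 10 members of the insulin-like growth factor (IGF) system, taken by symbol from the 23368 gene symbols of a table of read counts. They are the binding proteins IGFBP2, IGFBP3, IGFBP4, IGFBP5, IGFBP6 and IGFBP7, the receptors IGF1R and IGF2R, and the adaptors IRS1 and IRS2. All 10 had reads in every library. They were chosen with earlier results of these data known, so their counts beside all genes are descriptive and not a test. The counts come from 2 breast cancer cell lines, MDA-MB-231 from an ER- adenocarcinoma and T47D from an ER+ tumor, where ER is the estrogen receptor. Both were grown for 3 days as dispersed single cells inside synthetic poly(ethylene glycol) matrices that cells can degrade, with the collagen mimic GFOGER or the laminin mimic IKVAV as the only pendant peptide. All groups shared the same serum-containing medium and were released with collagenase before RNA extraction, and each RNA replicate pooled 3 gels.

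IGF1 and IGF2 are secreted growth factors that act through IGF1R, a receptor tyrosine kinase closely related to the insulin receptor. The docking proteins IRS1 and IRS2 are phosphorylated by the active receptor and recruit PI3K, whereas IGF2R, also the mannose 6-phosphate receptor, takes up IGF2 for degradation. The secreted binding proteins carry IGFs, limit or prolong their access to the receptor, and are themselves cut by proteases such as PAPPA. In breast cancer cells the system is known for its links to estrogen signaling, and IGF1R, IRS1, IGFBP4 and IGFBP5 are among the genes known to be higher in ER+ tumors or lines.

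Counts were present for 11 of 12 samples, with 3 GFOGER and 2 IKVAV libraries from MDA-MB-231 and 3 libraries per mimic from T47D. The remaining IKVAV replicate of MDA-MB-231 cells was not analysed here. Libraries held 14337035 to 18449108 counts, and a count of 3 stood for 0.168 to 0.201 cpm (counts-per-million, the reads of a gene relative to the library total). Levels are given as cpm after TMM normalization over the 11 libraries. Levels of different genes are compared as cpm per kilobase of the gene length in the table, except in sums of marker lists, which are in cpm. The markers matched the labels: ESR1 had 8 to 14 counts in MDA-MB-231 libraries and 4295 to 5140 in T47D libraries, CDH1, the epithelial cadherin, 40 to 85 and 14890 to 17637, and VIM, the mesenchymal filament protein, 22875 to 42454 and 61 to 87. T47D IKVAV replicate 3 stood apart from its group, and without it 94 genes rather than 3 were called between the mimics in T47D cells. It is also the only T47D IKVAV library whose deposited RPKM values imply a low library total, as those of all 3 T47D GFOGER libraries do, so that without it the mimic and this set of totals cannot be told apart. MDA-MB-231 GFOGER replicate 3 stood apart by a like amount. It differed from replicates 1 and 2 by 16.4 and 18.6 times sampling noise, against 2.51 between replicates 1 and 2. For T47D IKVAV replicate 3 the values were 17.9 and 16.9, against 5.5. The labels do not say whether replicates came from separate cultures, so p-values measure only the spread between these libraries. Fewer cells of a kind and less RNA per cell cannot be told apart in such bulk libraries.

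The 6 binding proteins are spread over 5 chromosomes of hg19, but IGFBP2 (chromosome 2, 217498127 to 217529158) and IGFBP5 (chromosome 2, 217536828 to 217560272) lie only 7669 bases apart, with 0 other genes of the table between them. These neighbors were both high in T47D cells and low in MDA-MB-231 cells, and IGFBP3 (chromosome 7, 45951844 to 45960871) was the member with the largest difference between the mimics. For this reason the 250 bases before a RefSeq start of these 3 genes are shown (GRCh38.p14, gene strand, 5′ to 3′). These coordinates differ from those of hg19, and the RefSeq start need not be the hg19 start given above. For IGFBP2, judged by the distance to IGFBP5, the RefSeq start lies upstream of that hg19 start. Capitals mark matches, on either strand, to a GC box (GGGCGG or, on the other strand, CCGCCC) and to the core of an estrogen receptor site (GGTCA or, on the other strand, TGACC).
IGFBP2, chr2:216632578-216632827, + strand: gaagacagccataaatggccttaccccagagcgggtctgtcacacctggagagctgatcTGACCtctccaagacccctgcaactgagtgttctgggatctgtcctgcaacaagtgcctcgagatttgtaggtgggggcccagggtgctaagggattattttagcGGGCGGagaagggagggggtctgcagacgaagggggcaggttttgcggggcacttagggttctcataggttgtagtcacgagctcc
IGFBP5, chr2:216695550-216695799, - strand: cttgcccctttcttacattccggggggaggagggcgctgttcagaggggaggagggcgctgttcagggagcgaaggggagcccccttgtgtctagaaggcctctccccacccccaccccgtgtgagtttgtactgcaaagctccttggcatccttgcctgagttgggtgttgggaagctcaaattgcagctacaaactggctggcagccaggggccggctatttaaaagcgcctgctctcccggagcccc
IGFBP3, chr7:45921273-45921522, - strand: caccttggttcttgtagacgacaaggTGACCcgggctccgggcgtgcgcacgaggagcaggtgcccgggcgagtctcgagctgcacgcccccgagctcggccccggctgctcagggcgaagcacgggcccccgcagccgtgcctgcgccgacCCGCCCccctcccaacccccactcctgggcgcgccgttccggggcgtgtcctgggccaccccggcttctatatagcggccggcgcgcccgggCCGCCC
Of the 10 members, 9 had such a window in the RefSeq table. The GC box was found in 8 of the 9, against 42.6% of 35116 windows of the same length. The GGTCA core was found in 3, namely IGFBP2, IGFBP3 and IGF2R, against 32.6% of all windows. A TATA box (TATAAA) was found in 1, IGFBP4, against 10.7%, and an AP-1 site (TGANTCA) in 0, against 6.57%. The window of IGFBP5 held none of these letters, although IGFBP5 was the most abundant member in T47D cells. Such matches describe the letters and not the binding of a factor.

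Each cell line had its own set of binding protein transcripts. When MDA-MB-231 was compared with T47D, averaged over the mimics, 5 members were higher in MDA-MB-231 cells (IGFBP3, IGFBP4, IGFBP6, IGFBP7 and IRS2) and 3 were lower (IGFBP2, IGFBP5 and IGF1R). Members and other genes were called where edgeR's quasi-likelihood test gave an adjusted p below 0.05 and the difference was over 2-fold. The 8 called members stand beside 46.3% of all 15310 genes tested, with 23.7% higher and 22.6% lower in the MDA-MB-231 line. At any fold all 10 members passed, as did 84.5% of all genes. Among the members the median absolute log2 difference was 3.85, and 0.90 among all genes. As the members were chosen with earlier results of these data known, such contrasts with all genes only describe them. With at least 10 counts required in every library, IGFBP2 and IGFBP7 were not tested, and the other 6 of the 8 called members were still called. The share of all genes called under that filter is not given here.

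IGFBP5, a binding protein that also attaches to extracellular matrix, had 5571, 5668 and 5323 cpm in the T47D libraries with GFOGER and 5776, 5062 and 4903 cpm with IKVAV. In MDA-MB-231 cells the level of IGFBP5 was 6.42, 6.21 and 7.88 cpm with GFOGER and 13.6 and 7.81 cpm with IKVAV, from 100 to 211 counts. The lines did not overlap, and the log2 difference of IGFBP5 was -9.29 (standard error, SE, 0.137, adjusted p = 4.16e-22), which is 624-fold lower in MDA-MB-231 cells.

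Its neighbor IGFBP2, which binds IGF2 with preference, went the same way at a lower level. In T47D cells IGFBP2 was at 74.1 to 101 cpm, with a median of 92.4 cpm over 6 libraries. In the 5 MDA-MB-231 libraries IGFBP2 had 3, 9, 4, 6 and 7 counts, close to the floor of 3. The log2 difference of IGFBP2 was -7.95 (SE 0.172, adjusted p = 1.34e-19).

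IGFBP4, which inhibits IGF action and is the main substrate of the protease PAPPA, was high in both lines. Its level in MDA-MB-231 cells was 1705, 1688 and 1999 cpm with GFOGER and 2178 and 2226 cpm with IKVAV. In T47D cells IGFBP4 was at 619, 674 and 567 cpm with GFOGER and 556, 439 and 573 cpm with IKVAV. Every MDA-MB-231 library was above every T47D library, and the log2 difference of IGFBP4 was 1.82 (SE 0.0729, adjusted p = 3.82e-15), or 3.53-fold.

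IGFBP7 (chromosome 4, 57897237 to 57976551), a matrix-associated relative of the family with weak affinity for IGFs, was at 139 to 156 cpm in MDA-MB-231 cells with a median of 147 cpm over 5 libraries. In T47D cells it had only 5 to 16 counts, and the log2 difference of IGFBP7 was 7.59 (SE 0.128, adjusted p = 2.99e-21). The locus overlaps POLR2B, and the strand setting of the counting is not given in the sources used here. IGFBP3, the main carrier of IGFs in serum, had 768 to 1611 counts in MDA-MB-231 libraries and 16 to 35 in T47D libraries, a log2 difference of 5.55 (SE 0.117). IGFBP6, which prefers IGF2, had 281 to 490 counts and 10 to 20 counts, a log2 difference of 4.61 (SE 0.145). For each of these 3 binding proteins the lines were far apart in every library.

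**Figure D1:**
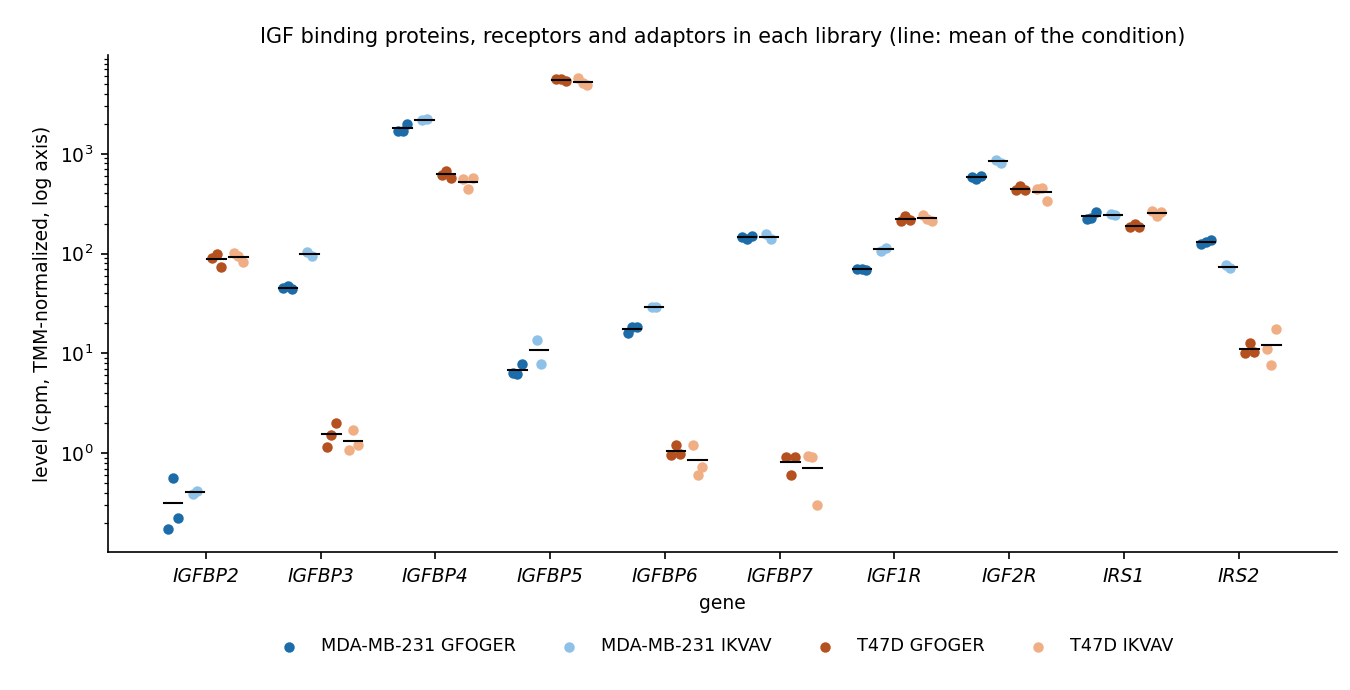
Level of each of the 10 genes in each of the 11 libraries, in TMM-normalized cpm on a log axis, with points for libraries, colors for the 4 conditions and a black line at each condition's mean. IGFBP5 sits at 4903 to 5776 cpm in T47D libraries and at 6.21 to 13.6 cpm in MDA-MB-231 libraries, while IGFBP3, IGFBP6 and IGFBP7 are high in MDA-MB-231 libraries.

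The composition of the 6 binding protein transcripts was compared within each library, per kilobase, which does not depend on the library total. IGFBP5 made up 72.3%, 70.9% and 73.5% of the 6 in T47D cells with GFOGER and 74.2%, 75.4% and 71.4% with IKVAV. Its share in the MDA-MB-231 line was 0.107% to 0.187%, and the exact two-sided permutation test between 5 and 6 libraries gave p = 0.00433, the smallest that it can give. IGFBP4 took 84.4% ± 0.981 (SD, n = 3) with GFOGER and 84.4% ± 1.03 (SD, n = 2) with IKVAV among MDA-MB-231 libraries, followed by IGFBP7 at 11.7% ± 0.73 and 9.59% ± 0.793. In T47D cells IGFBP4 was second, at 22.6% ± 0.868 and 20.5% ± 2.56 (SD, n = 3 each), followed by IGFBP2, at 4.99% ± 0.472 and 5.66% ± 0.461. The sum over the 6 genes differed far less than their composition. It was 952 ± 80.8 cpm per kilobase (SD, n = 3) with GFOGER and 1170 ± 3.79 (SD, n = 2) with IKVAV in the MDA-MB-231 line, and 1230 ± 60.7 and 1140 ± 92.6 (SD, n = 3 each) in T47D cells. The range of the sum in MDA-MB-231 cells with IKVAV lay inside the range of both T47D groups, whereas with GFOGER (901 to 1040) it lay below both (1160 to 1280 and 1080 to 1250).

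**Figure D2:**
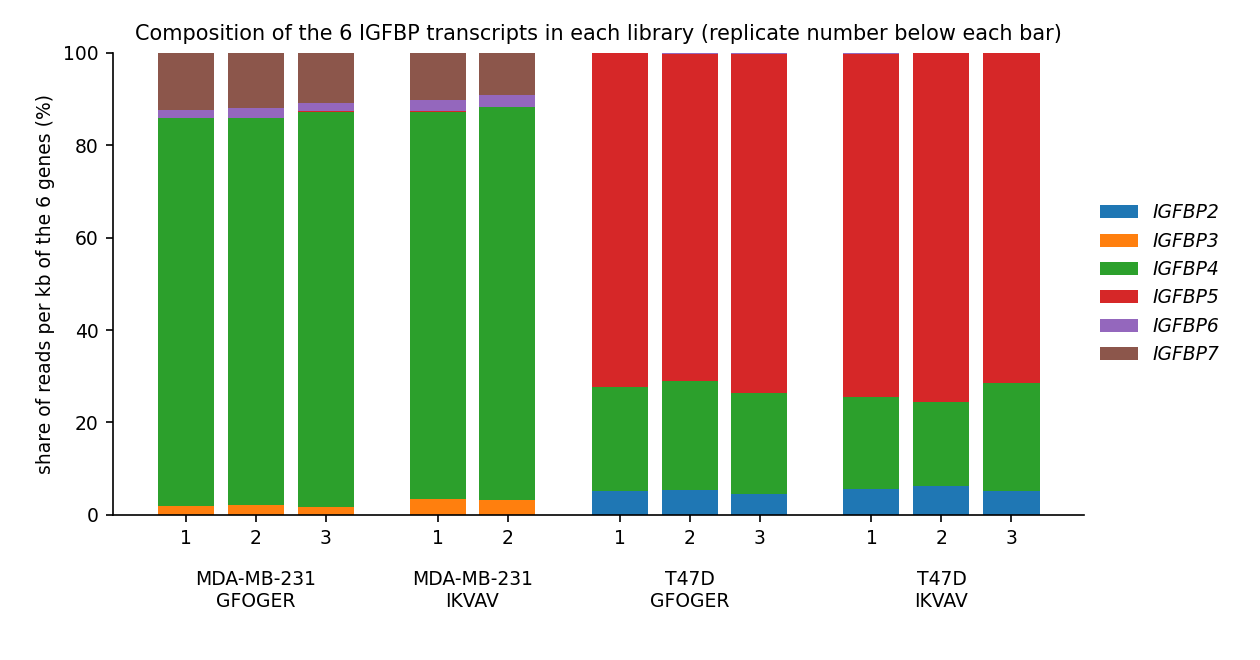
Share of each of the 6 IGFBP genes in their summed reads per kilobase, in percent, as a stacked bar for each of the 11 libraries grouped by condition. IGFBP4 takes 83.7% to 85.6% of the bar in MDA-MB-231 libraries, and IGFBP5 takes 70.9% to 75.4% in T47D libraries.

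In the order of all 10 members per kilobase, IGFBP4, IGFBP7 and IGF2R led in both MDA-MB-231 groups. With GFOGER these were 804 ± 78, 111 ± 3.17 and 63.9 ± 2.8 cpm per kilobase (SD, n = 3). Further down, IRS2 at 18.7, IGFBP6 at 18.3 and IGFBP3 at 17.4 cpm per kilobase overlapped with their neighbors in that order. With IKVAV, IGFBP3 at 37.8 and IGFBP6 at 30.3 cpm per kilobase stood above IRS1 at 28.1 and did not overlap with it. In T47D cells the order was led by IGFBP5, IGFBP4, IGFBP2 and IGF2R with both mimics, and only with GFOGER did the ranges of IGFBP2 and IGF2R overlap. IGFBP6, IGFBP7 and IGFBP3 were last in T47D cells, at 0.503 to 1.09 cpm per kilobase, and the ranges of IGFBP7 and IGFBP3 overlapped in both groups.

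IGF1R and IGF2R had smaller log2 differences between the lines than any of the 6 binding proteins. IGF1R, the signaling receptor (chromosome 15, 99192761 to 99507759), was at 212, 240 and 219 cpm in T47D cells with GFOGER and 241, 220 and 214 cpm with IKVAV. In MDA-MB-231 cells IGF1R was at 70.4, 70.5 and 67.9 cpm with GFOGER and 106 and 114 cpm with IKVAV, below every T47D library. The log2 difference of IGF1R was -1.34 (SE 0.0618, adjusted p = 3.85e-14), or 2.54-fold lower. IGF2R, the clearance receptor (chromosome 6, 160390131 to 160527583), was at 553 to 862 cpm in MDA-MB-231 cells and 336 to 472 cpm in T47D cells, and all MDA-MB-231 libraries were higher. Its log2 difference was 0.72 (SE 0.073, adjusted p = 1.52e-08), under 2-fold, although with IKVAV alone it was 1.03. The insulin receptor INSR, which can pair with IGF1R, was at 54.4 to 73.2 cpm in MDA-MB-231 cells and 7.31 to 8.87 cpm in T47D cells, a log2 difference of 2.95 (SE 0.0777, adjusted p = 3.28e-18). IGF1R was thus the higher in T47D cells and INSR the higher in MDA-MB-231 cells. Per kilobase, INSR (6.01 to 8.08) was near IGF1R (6.04 to 10.2) in MDA-MB-231 cells, whereas in T47D cells INSR (0.807 to 0.98) was far below IGF1R (18.9 to 21.4).

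Of the adaptors, IRS2 (chromosome 13, 110406184 to 110438914) differed between the lines and IRS1 (chromosome 2, 227596033 to 227663506) hardly did. IRS2 was at 126, 131 and 135 cpm with GFOGER and 76.5 and 70.8 cpm with IKVAV in MDA-MB-231 cells. The T47D libraries were at 10.0, 12.6 and 10.2 cpm with GFOGER and 11, 7.67 and 17.7 cpm with IKVAV. The lines did not overlap, with a log2 difference of 3.10 (SE 0.13, adjusted p = 8.04e-15). IRS1 ranged from 224 to 261 cpm in MDA-MB-231 cells and from 185 to 268 cpm in T47D cells, and these ranges overlap. Its log2 difference was 0.15 (SE 0.0604, adjusted p = 0.027), and it was 0.36 with GFOGER alone (adjusted p = 0.000487) and -0.06 with IKVAV alone (adjusted p = 0.583).

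**Figure D3:**
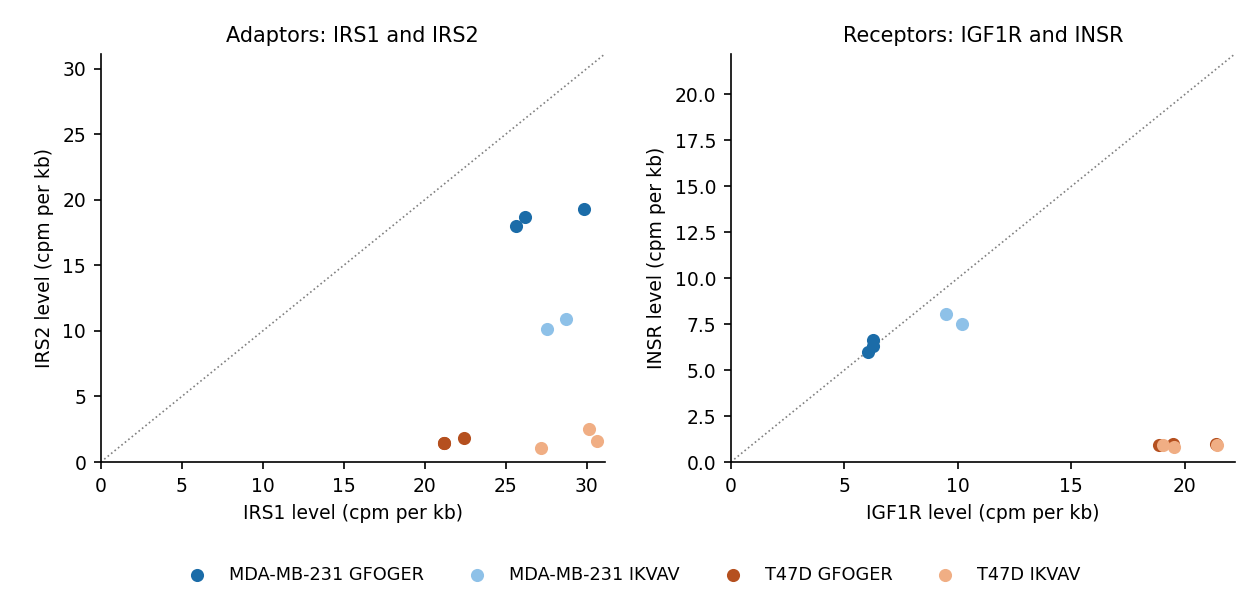
Level of IRS2 against IRS1 (left) and of INSR against IGF1R (right), in cpm per kilobase, 1 point for each of the 11 libraries and colors for the 4 conditions, with a dotted line of equal levels. T47D libraries lie along the lower edge of both panels, with IRS2 at 1.1 to 2.52 and INSR at 0.807 to 0.98, and the MDA-MB-231 libraries separate by mimic.

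Within each library, IRS2 made up 41.2%, 41.6% and 39.3% of IRS1 plus IRS2 per kilobase in the GFOGER libraries of MDA-MB-231 cells and 27.6% and 26.9% in the IKVAV libraries. In T47D cells the IRS2 share was 6.35%, 7.42% and 6.45% with GFOGER and 4.88%, 3.88% and 7.72% with IKVAV. Between the lines the shares were 35.3% ± 7.46 (SD, n = 5) and 6.12% ± 1.48 (SD, n = 6), with p = 0.00433 in the exact two-sided permutation test, the smallest that it can give. Between the mimics in MDA-MB-231 cells the groups did not overlap, at 40.7% ± 1.24 (SD, n = 3) and 27.2% ± 0.482 (SD, n = 2). The exact permutation test gave p = 0.2 there, which is the smallest p that 3 against 2 libraries allow. In T47D cells the mimics overlapped and the exact permutation test gave p = 0.4, where 0.1 is the smallest possible.

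The question of the study was how a collagen-like and a laminin-like matrix affect the same cells. In MDA-MB-231 cells, most members had lower levels with GFOGER than with IKVAV. Of 9 members tested, 1 was called, IGFBP3, against 9.57% of all 14090 genes tested (3.12% higher and 6.46% lower with GFOGER). With an adjusted p below 0.05 at any fold, 6 fell (IGFBP3, IGFBP4, IGFBP5, IGFBP6, IGF1R and IGF2R) and 1 rose (IRS2). Those 7 stand beside 42.8% of all genes, of which 21.4% rose and 21.4% fell. The median log2 fold change was -0.54 over the 9 members and 0.00 over all genes. This contrast too is descriptive, given how the members were chosen. IGFBP2 had too few counts in these cells to be tested.

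IGFBP3 was at 44.8, 47.7 and 44.6 cpm with GFOGER and at 104 and 95.3 cpm with IKVAV in MDA-MB-231 cells, without overlap. Its log2 fold change was -1.13 (SE 0.103, adjusted p = 2.76e-07), 2.19-fold lower with GFOGER. IGFBP6 was at 16.1, 18.5 and 18.5 cpm with GFOGER and 29.0 and 29.4 cpm with IKVAV, also without overlap, a log2 fold change of -0.73 (SE 0.131, adjusted p = 0.000292). IGFBP4 was lower with GFOGER by less, with a log2 fold change of -0.30 (SE 0.0831, adjusted p = 0.00768), and the gap between the groups was small (1999 and 2178 cpm). Without IKVAV replicate 1 or 2 its adjusted p was 0.0668 or 0.103.

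The lower IGFBP5 in MDA-MB-231 cells with GFOGER rested on 1 library. IGFBP5 had 112, 100 and 141 counts with GFOGER and 211 and 130 with IKVAV, a log2 fold change of -0.65 (SE 0.219, adjusted p = 0.0244). The groups overlap, and without IKVAV replicate 1 the value of IGFBP5 was -0.20 (adjusted p = 0.584). That library is also the only one of the MDA-MB-231 libraries whose deposited RPKM values imply a low library total. IGFBP7 was nearly level, at 141 to 149 cpm with GFOGER and 139 and 156 cpm with IKVAV, a log2 fold change of -0.02 (SE 0.0935, adjusted p = 0.861).

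Both receptors were lower with GFOGER in MDA-MB-231 cells. IGF1R, at 67.9 to 70.5 cpm with GFOGER and 106 and 114 cpm with IKVAV, had a log2 fold change of -0.68 (SE 0.0975, adjusted p = 4.08e-05). IGF2R was at 585, 553 and 604 cpm with GFOGER and 862 and 814 cpm with IKVAV, a log2 fold change of -0.54 (SE 0.0796, adjusted p = 5.06e-05). Neither gene overlapped between the mimics, and neither reached 2-fold. INSR moved the same way by -0.31 (SE 0.105, adjusted p = 0.0232).

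The adaptors did not move together. IRS2 rose with GFOGER by 0.82 on the log2 scale (SE 0.0992, adjusted p = 7.17e-06), or 1.76-fold, without overlap. IRS1 was at 224, 229 and 261 cpm with GFOGER and 251 and 241 cpm with IKVAV, and its log2 fold change was -0.06 (SE 0.0931, adjusted p = 0.66). GFOGER replicate 3 was the highest of these IRS1 values, and without it the log2 fold change was -0.13 (adjusted p = 0.0154).

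In T47D cells, 0 of the 10 members were called between the mimics and 0 passed at any fold with edgeR, against 0.022% of all 13639 genes called and 0.044% passed. At an unadjusted p below 0.05 there were 2, IGFBP4 and IRS1, against 1532 of all 13639 genes tested. DESeq2 gave an adjusted p below 0.05 for 1 member, IRS1, and limma's voom with sample quality weights for 2, IGFBP4 and IRS1. The share of all genes that passed with DESeq2 or voom is not given here, so these counts do not set the members apart from other genes. IRS1 was at 185, 196 and 185 cpm with GFOGER and 268, 237 and 263 cpm with IKVAV, with no overlap. Its log2 fold change was -0.46 (SE 0.0765, adjusted p = 0.0505), just above the threshold, and over 16 alternatives the adjusted p ran from 0.000103 to 0.37 and was below 0.05 in 9. IGFBP4 had a log2 fold change of 0.23 (SE 0.0996, adjusted p = 0.414).

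T47D IKVAV replicate 3 differed from its group in several members. It had 336 cpm of IGF2R against 443 and 455 cpm in replicates 1 and 2, and 17.7 cpm of IRS2 against 11 and 7.67 cpm. Without this library, where mimic and set of totals coincide, the adjusted p was 0.00087 for IRS1, at a log2 fold change of -0.45, and 0.0467 for IGFBP4, at 0.29. The abundant IGFBP5 had a log2 fold change of 0.06 between the mimics in T47D cells (SE 0.0827), and IGF1R of -0.03 (SE 0.0826).

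**Figure D4:**
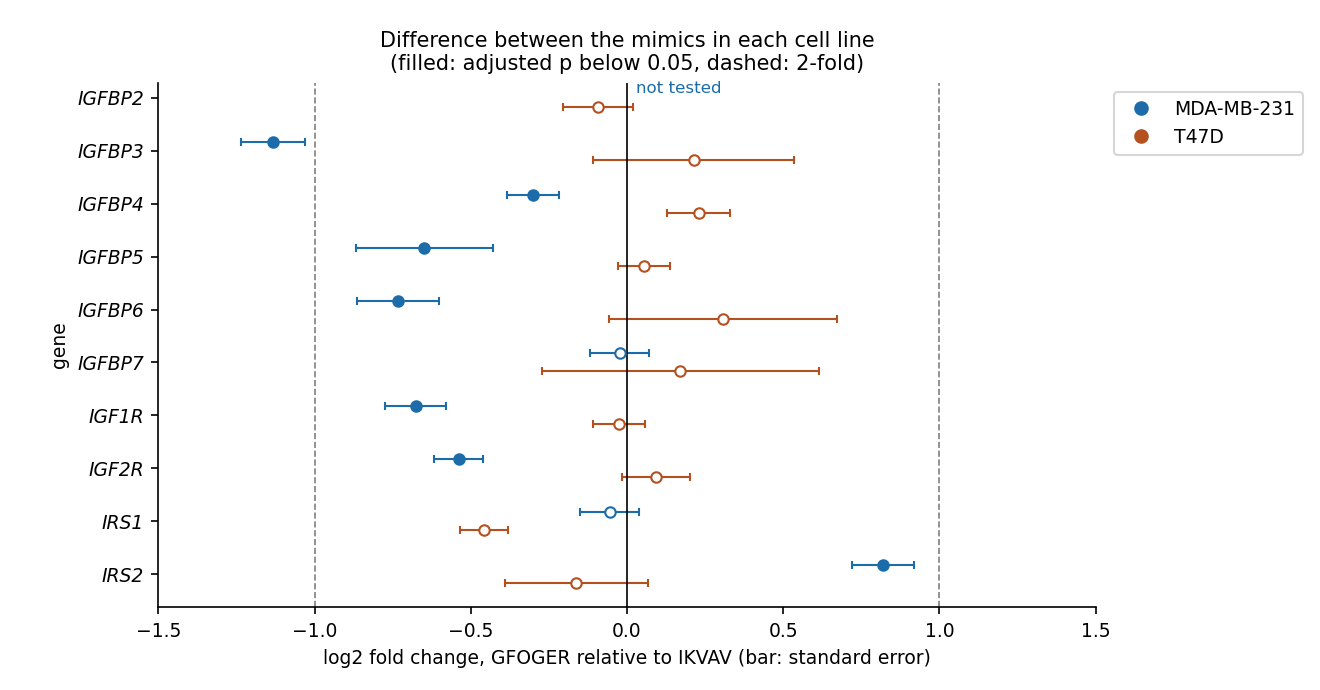
Log2 fold change of each gene with GFOGER relative to IKVAV, in MDA-MB-231 cells (blue) and T47D cells (brown), with standard errors as bars, filled points at an adjusted p below 0.05 and dashed lines at 2-fold. In MDA-MB-231 cells IGFBP3 lies beyond the line at -1.13 and IRS2 is the filled point to the right at 0.82, while T47D points are open, with IRS1 at -0.46.

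Whether the lines responded differently was tested by an interaction term, the log2 fold change in MDA-MB-231 cells minus that in T47D cells. IGFBP3, at -1.34 (SE 0.276, adjusted p = 0.00203), and IGFBP6, at -1.03 (SE 0.337, adjusted p = 0.0341), were called, 2 of 10 members against 6.43% of 15310 genes (2.25% positive and 4.18% negative). At any fold 8 members passed against 21.1% of all genes. Of these, 6 were negative (IGFBP3, IGFBP4, IGFBP5, IGFBP6, IGF1R and IGF2R), where 10.2% of all genes were, and 2 were positive (IRS1 and IRS2), where 10.9% were. Here as well the members were chosen with earlier results known, so the contrast with all genes is descriptive. IGF1R had an interaction of -0.64 (SE 0.12, adjusted p = 0.000845), IGF2R of -0.62 (SE 0.146, adjusted p = 0.00499) and IRS2 of 0.99 (SE 0.26, adjusted p = 0.0103). That of IRS2 was 0.62 without T47D IKVAV replicate 3 (adjusted p = 0.0227), and its adjusted p was 0.0642 without MDA-MB-231 IKVAV replicate 2 and below 0.05 in 18 of 20 alternatives. The interaction of IGFBP6 rested on 10 to 20 counts in each T47D library and had an adjusted p below 0.05 in 10 of 20 alternatives. For IGFBP3 (16 to 35 counts in T47D libraries), IGF1R and IGF2R it was below 0.05 in all 20.

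The other genes of the pathway were taken as 7 lists with 75 genes, chosen with earlier results of these data known. The ligands were at or near the floor in both lines, with 0 to 7 counts of IGF1 and 0 to 6 of IGF2 in any library, and were not tested. INS and IRS4 had 0 counts in every library. Between the lines, 34 of 68 genes tested were called, 25 of them higher in the MDA-MB-231 line and 9 lower, against 46.3% of all genes. IGFBP1, a liver-type binding protein and the neighbor of IGFBP3 at 18576 bases on chromosome 7, followed it with 387 to 574 counts in MDA-MB-231 libraries and 0 to 3 in T47D libraries.

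Among 7 proteases and inhibitors tested, 5 were called higher in the MDA-MB-231 line and 1 lower, against 23.7% and 22.6% of all genes. ADAM9 was also higher, by 0.675 on the log2 scale, which is under 2-fold. PAPPA, which cuts IGFBP4, was higher by 4.23 on the log2 scale (SE 0.133), and the serine protease HTRA1, which can cut IGFBP5, by 5.63 (SE 0.0905). The stanniocalcins, inhibitors of PAPPA, went in opposite directions. STC2 was the one lower, with 27 to 59 counts in MDA-MB-231 libraries and 11134 to 13403 in T47D libraries, and STC1 was 22-fold higher, with 3213 to 6214 and 142 to 241 counts. The metalloproteases ADAM28 and ADAM12 had 0 to 2 counts in each T47D library, against 249 to 951 and 65 to 77 in MDA-MB-231 libraries. Among negative regulators of the receptors, SOCS2 and SOCS3 were higher in MDA-MB-231 cells, SOCS3 by 3.46 on the log2 scale, and the adaptors GRB14 and GRB7 were lower by 4.38 and 2.21. Within PI3K signaling, the mTOR inhibitor DEPTOR was 18.2-fold and the PI3K subunit PIK3R1 5.42-fold lower in MDA-MB-231 cells. The RNA-binding proteins IGF2BP3 and IGF2BP2 were higher by 6.78 and 2.13 on the log2 scale.

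Between the mimics in MDA-MB-231 cells, 6 of 66 pathway genes tested were called, 3 up and 3 down, or 9.09% against 9.57% of all genes. At any fold 33 passed, 16 up and 17 down, with a median log2 fold change of 0.04, which is 50% against 42.8% of all genes. The protease HTRA1 was at 38.8, 37.3 and 39.4 cpm with GFOGER and 192 and 183 cpm with IKVAV, a log2 fold change of -2.29 (SE 0.0968, adjusted p = 3.16e-11). ADAM28, a metalloprotease that can cut IGFBP3, was at 19.5, 19.2 and 13.9 cpm with GFOGER and 59.6 and 57.1 cpm with IKVAV, a log2 fold change of -1.75 (SE 0.139). FOXO1, a transcription factor that AKT inhibits, fell by 1.18 on the log2 scale (SE 0.12). These genes were lower with GFOGER without overlap, as IGFBP3 and IGFBP6 were.

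The genes that rose with GFOGER in MDA-MB-231 cells were NEDD4, a ubiquitin ligase that acts on receptors and adaptors, by 1.34 on the log2 scale (SE 0.104), the binding-protein relative IGFBPL1 by 1.46 (SE 0.196), and SOCS2 by 1.53 (SE 0.282). NEDD4 was at 196, 202 and 169 cpm with GFOGER and 73.3 and 75.2 cpm with IKVAV. IGFBPL1 had 172 to 179 counts with GFOGER and 56 and 62 with IKVAV, while SOCS2 had only 28 to 132 counts in these libraries. In T47D cells 0 of 61 pathway genes were called and 0 passed with edgeR, against 0.022% and 0.044% of all genes. An unadjusted p below 0.05 was found for 13 of the 61, against 1532 of all 13639 genes. DESeq2 passed 0 pathway genes as well. With limma's voom 6 passed and 1 was called. The share of all genes with voom is not given here, so these counts do not set the pathway apart. The called gene was PAPPA, at a log2 fold change of -1.45, from 12 to 19 counts with GFOGER and 31 to 38 with IKVAV. Without T47D IKVAV replicate 3, edgeR called PAPPA too, at -1.31 (SE 0.329, adjusted p = 0.0163), again with mimic and set of totals confounded.

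In the interaction, 5 of 68 pathway genes were called, 4 positive (IGFBPL1, PAPPA, NEDD4 and IGF2BP3) and 1 negative (HTRA1), against 6.43% of all genes. HTRA1 was at -2.40 (SE 0.212, adjusted p = 2.23e-07) and NEDD4 at 1.47 (SE 0.14, adjusted p = 6.4e-07). PAPPA was at 1.65 (SE 0.297, adjusted p = 0.000645), with log2 fold changes of 0.42 for the MDA-MB-231 line and -1.22 for T47D.

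**Figure D5:**
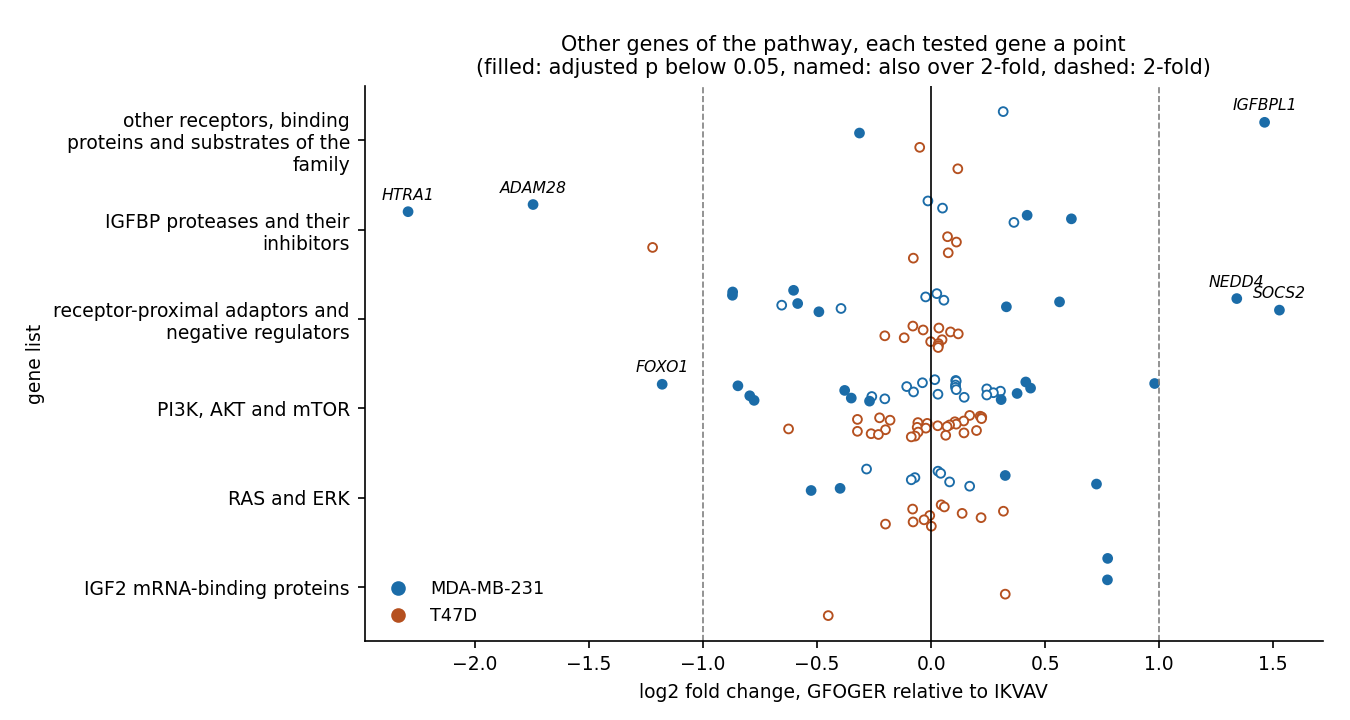
Log2 fold change with GFOGER relative to IKVAV for the tested genes of 6 of the 7 pathway lists, in MDA-MB-231 cells (blue) and T47D cells (brown), with filled points at an adjusted p below 0.05, names at genes also over 2-fold and dashed lines at 2-fold. The ligand list, with 1 gene tested in T47D cells, is not drawn. HTRA1 at -2.29 and SOCS2 at 1.53 are the ends of the MDA-MB-231 points, and T47D points are open.

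Of the markers of other cells, PECAM1 and PDGFRB differed between the mimics in MDA-MB-231 cells. The 7 markers of blood, vessel, stromal and liver cells summed to 15.3 to 19.1 cpm with GFOGER and 28 to 31.5 cpm with IKVAV, and to 6.89 to 8.57 cpm in T47D cells. Between the mimics in MDA-MB-231 cells 3 of the 7 were tested. At an adjusted p below 0.05, 2 fell, PECAM1 by 0.70 and PDGFRB by 1.29 on the log2 scale, where 21.4% of all genes fell. Both were singled out after their values were seen. ACTA2 was also tested and was nearly level, at a log2 fold change of 0.05. PTPRC had 1 to 10 counts, VWF 1 to 4, DCN 0 to 1 and ALB 0 to 5 in these libraries, and KRT5 and KRT14, which mark basal cells, 0 to 1. The 7 mesenchymal and basal markers summed to 4480 to 4570 cpm with GFOGER and 3300 to 3370 cpm with IKVAV, and the 8 luminal markers to 518 to 618 and 571 to 590 cpm. Most of the mesenchymal sum in cpm was VIM (means of 2320 and 1450 cpm) and CD44 (2050 and 1710 cpm). Per kilobase, VIM (1090 and 679) was well above CD44 (307 and 256). Of 5 mesenchymal markers tested, 3 rose with GFOGER at an adjusted p below 0.05, while 1, ZEB1, fell by 0.40 on the log2 scale. Of the 8 luminal markers tested, 1 passed, CDH1, which fell by 0.97, and 7 did not pass. CDH1 had 40 to 43 counts with GFOGER and 67 and 85 with IKVAV. The part of these differences in the values of the IGF genes was not tested.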

How the data were processed

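MDA-MB-231 and T47D cells were sequenced by the authors after 3 days in matrices with GFOGER or IKVAV. Per the submitters' processing notes and the methods, reads were trimmed with Trim Galore 0.4.4, aligned to hg19 with TopHat2 2.1.0 and assigned to genes with HTSeq 0.6.1p1. The kit was stranded. The strand option and gene annotation are not given in the sources used here. The deposited counts per gene are whole numbers without normalization, and they alone were tested. The deposited RPKM values, scaled by the authors to gene length and a library total, were used only for the totals they imply, which were 5191201 to 5774966 in 5 libraries (MDA-MB-231 IKVAV replicate 1, all T47D GFOGER replicates and T47D IKVAV replicate 3) and 19898878 to 22840524 in 6.

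Of 24656 entries, the 1288 that repeat a symbol were left out, 6 of them with a count and 0 a member or list gene. Genes were filtered with filterByExpr, normalized by TMM and tested with the quasi-likelihood test of edgeR 4.0.16 in R 4.3.3, with Benjamini-Hochberg adjustment over all genes tested and SE taken as the absolute log2 fold change over the square root of F. Each line was fitted on its own for the mimics, and the 4 groups together for the lines and the interaction. Shares were tested by exact permutation over libraries. Floors reflect counting error alone, as the reads carried no molecular identifiers in the counts. Replicates differed by 2.51 to 18.6 times sampling noise. The mimic comparison in each line and the interaction were tested beforehand on simulated data with changes of 2 on the log2 scale. The comparison of the lines and smaller changes were not simulated.

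The members and gene lists were chosen with earlier results of these data known. By the rule for named genes, all members were named, and pathway genes where called between the mimics or in the interaction, with IGF1, IGF2 and INSR always and up to 3 per list and direction between the lines. ESR1, CDH1 and VIM were named as checks of the labels, and INS, IRS4, IGFBP1, STC1 and the other marker genes after their values were seen. Alternatives were DESeq2 1.42.0, voom of limma 3.58.1, other normalizations and filters, a replicate block, a term for the set of RPKM totals, 1 mimic alone, all groups in 1 fit, the adjusted p alone and leaving out each library. TMM before the filter was added after the data were seen.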

Additional observations from a re-analysis of the deposited data

Results flagged for a closer look

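The response to the mimic differed between the cell lines for 8 members, by the test of the interaction itself with an adjusted p below 0.05 (edgeR's quasi-likelihood test). The values, MDA-MB-231 minus T47D on the log2 scale, were -1.34 for IGFBP3, -0.52 for IGFBP4, -0.69 for IGFBP5, -1.03 for IGFBP6, -0.64 for IGF1R, -0.62 for IGF2R, 0.41 for IRS1 and 0.99 for IRS2. For IRS1 it was the T47D line whose value was further from 0, at -0.46 against -0.06, and for IRS2 the MDA-MB-231 line, at 0.82 against -0.16. Over 20 alternatives the adjusted p was below 0.05 in 18 for IGFBP4, 16 for IGFBP5 and 15 for IRS1. The value for IGFBP5 was -0.25 (adjusted p = 0.438) without MDA-MB-231 IKVAV replicate 1. No condition had 4 or more libraries, so single libraries were not tested as outliers.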

How the results depend on the processing

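Of 385 values of member log2 fold changes under other settings, 356 kept their direction and side of the threshold, 11 lost and 11 gained an adjusted p below 0.05, and 7 changed sign. Those 7 were IGFBP7 in MDA-MB-231 cells (0.058) and IGFBP2 (0.102) and IGF1R (0.072) in T47D cells with the set of RPKM totals as a term, which in MDA-MB-231 cells only absorbs IKVAV replicate 1, IGFBP3 (-0.117), IGF2R (-0.029) and IRS2 (0.09) in T47D cells with voom, and IRS1 between the lines with IKVAV only (-0.056). Without the limit on fold, the counts became 7 members and 33 pathway genes in MDA-MB-231 cells, 63 pathway genes between the lines, and 8 members and 18 pathway genes in the interaction. With voom, PAPPA was called in T47D cells.

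With 1 library left out, 286 of 325 member values stayed, 25 lost and 3 gained significance and 11 changed sign. Ranges of log2 fold changes with a change of sign were -0.101 to 0.063 for IGFBP7 in the MDA-MB-231 line. For the T47D line they were -0.184 to 0.008 for IGFBP2, -0.022 to 0.436 for IGFBP3, 0 to 0.137 for IGFBP5, -0.212 to 0.409 for IGFBP7, -0.077 to 0.035 for IGF1R, -0.042 to 0.175 for IGF2R and -0.405 to 0.207 for IRS2. In the interaction they were -0.922 to 0.006 for IGFBP2 and -0.439 to 0.196 for IGFBP7. The IGFBP5 share in MDA-MB-231 cells, GFOGER minus IKVAV, ran from -0.0721 to 0.00777 percentage points. Interaction members called ranged from 1 to 3 and T47D pathway genes called from 0 to 1. The matching shares of all genes are not given here, except for T47D cells without IKVAV replicate 3.

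The replicate numbers did not pair the libraries: deviations of libraries with the same number had correlations of -0.387 to 0.0852 over 15 pairs. With the replicate block, IGFBP3 was still called in the interaction. IGFBP6 was not, at an adjusted p of 0.0642, and that of IRS1 was 0.0646. IRS1 passed in T47D cells (0.0356) and, in a fit with 1 residual degree of freedom, in MDA-MB-231 cells (0.00971). The genes passing at any fold in T47D cells went from 6 to 38. The cause of these changes was not tested. IGFBP2 in MDA-MB-231 cells, and IGFBP3, IGFBP6 and IGFBP7 in T47D cells at 5 to 35 counts, are limited by depth.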
